A study of Mus musculus with 24 samples.

Results

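The transcripts described here are those of the immunoglobulin gene segments of the mouse jejunum, together with Jchain and Pigr, whose products link and carry IgA across the gut wall. A gene was counted as a member when its name placed it among the heavy, kappa or lambda variable (V), diversity (D), joining (J) or constant segments, or when it was Jchain or Pigr, and when it held at least 10 counts in at least 3 libraries. Of 281 such genes among 34471 listed, 222 met this minimum. They comprised 100 of 128 Ighv, 94 of 110 Igkv and 3 of 3 Iglv segments, 4 of 4 Ighj, 5 of 5 Igkj and 2 of 5 Iglj segments, 8 of 8 heavy constant genes, Igkc, 3 of 4 lambda constant genes, Jchain and Pigr. None of the 11 listed Ighd segments met it. In the deposited GRCm39 coordinates the heavy chain members lay on chromosome 12 (113218450 to 115964081), the kappa members on chromosome 6 (67532481 to 70703950) and the lambda members on chromosome 16 (18880368 to 19079609).

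RNA was sequenced from the distal jejunum of 24 mice, with 1 library per mouse. The 8 groups of 3 mice were male and female, wild type or Ptk6-/-, and either kept on plain drinking water (control) or given 100 mM succinate in the water for 7 days. The Ptk6-/- mice carried a germline disruption of Ptk6, a tyrosine kinase of epithelial cells, on a C57BL/6 background, so the gene was disrupted in every tissue and not in the epithelium alone. Mice were age-matched and came from different litters of 1 colony. Each value is therefore that of a different animal.

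A B cell makes an immunoglobulin heavy chain by joining a V, a D and a J segment and a light chain by joining a V and a J segment, and its descendants keep that choice. The constant gene then sets the class: Ighm and Ighd are used by naive B cells, and class switching moves the cell to an IgG, IgE or IgA gene. In the intestinal lamina propria most plasma cells make dimeric IgA, in which the J chain joins the monomers, and the polymeric immunoglobulin receptor (Pigr) of epithelial cells carries the dimer to the lumen. Because plasma cells hold very large amounts of immunoglobulin mRNA, a segment's share of counts weighs cells by how much they transcribe and is not a count of cells or clones. In whole tissue, fewer cells of a type and less RNA per cell cannot be told apart.

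Libraries held 8080321 to 52824743 counts, with a median of 43017687, and immunoglobulin genes took 0.736% to 2.19% of them. Ptk6 itself had 284 counts or more in every wild type library and 61 or fewer in every Ptk6-/- library. Epithelial markers were present throughout (summed level of 5 genes 6750 to 17765 CPM, the TMM-scaled count rate). 3 libraries stood apart. Wild type male control 1 had 51.2% of its counts in a ribosomal RNA gene (Rn18s-rs5). Ptk6-/- male succinate 1 was the shallowest and had 29.7% of its counts in the same gene. Wild type female succinate 2 held heart muscle transcripts (9 genes summing to 20941 CPM against a median of 41.9) and 74.3 CPM of 4 Y-linked genes, a level of males (the other 11 female libraries had at most 0.971 CPM), against its label. Lung transcripts (8 genes) summed to 11.9 to 19.9 CPM in the 3 Ptk6-/- female controls, to 7.77 to 11.6 CPM in the 3 Ptk6-/- females given succinate, to 18.1 CPM in wild type female succinate 3 and to at most 4.15 CPM in the other 17 libraries, and Scgb1a1, a secretory protein of airway epithelium, was called higher in Ptk6-/- than in wild type female controls (log2 fold change 11.4, adjusted p = 0.0211, edgeR). All 6 Ptk6-/- females carried them, and among the wild type females only succinate 3 did, so in female controls they and the genotype cannot be told apart. Among females given succinate the ranges of the genotypes overlapped. The values below are of all 24 libraries unless a fit without some of them is named.

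IgA dominated the heavy chains. Igha was at 3867 to 16597 CPM (median 7649), and it took 93.9% to 99.8% of the counts of the 8 heavy constant genes. The shares of counts and the CPM medians in this paragraph are not corrected for gene length. Levels of genes from different classes are also given as FPKM, which divides by transcript length and by depth. The median FPKM was 5365 for Igkc, the kappa constant gene, 2118 for Igha, 460 for Pigr, 217 for Jchain, 159 for Iglc1 and 14.7 for Ighm. Kappa made up 93.0% to 98.1% of the light chain constant counts. Within lambda, Iglc1 made up 58.0% to 96.4%. The remaining heavy classes were scarce. Median levels were 35.8 CPM for Ighm, 27.3 for Ighg2b, 13.9 for Ighg1, 4.15 for Ighd, 3.27 for Ighg3 and 0.710 for Ighg2c.

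**Figure D1:**
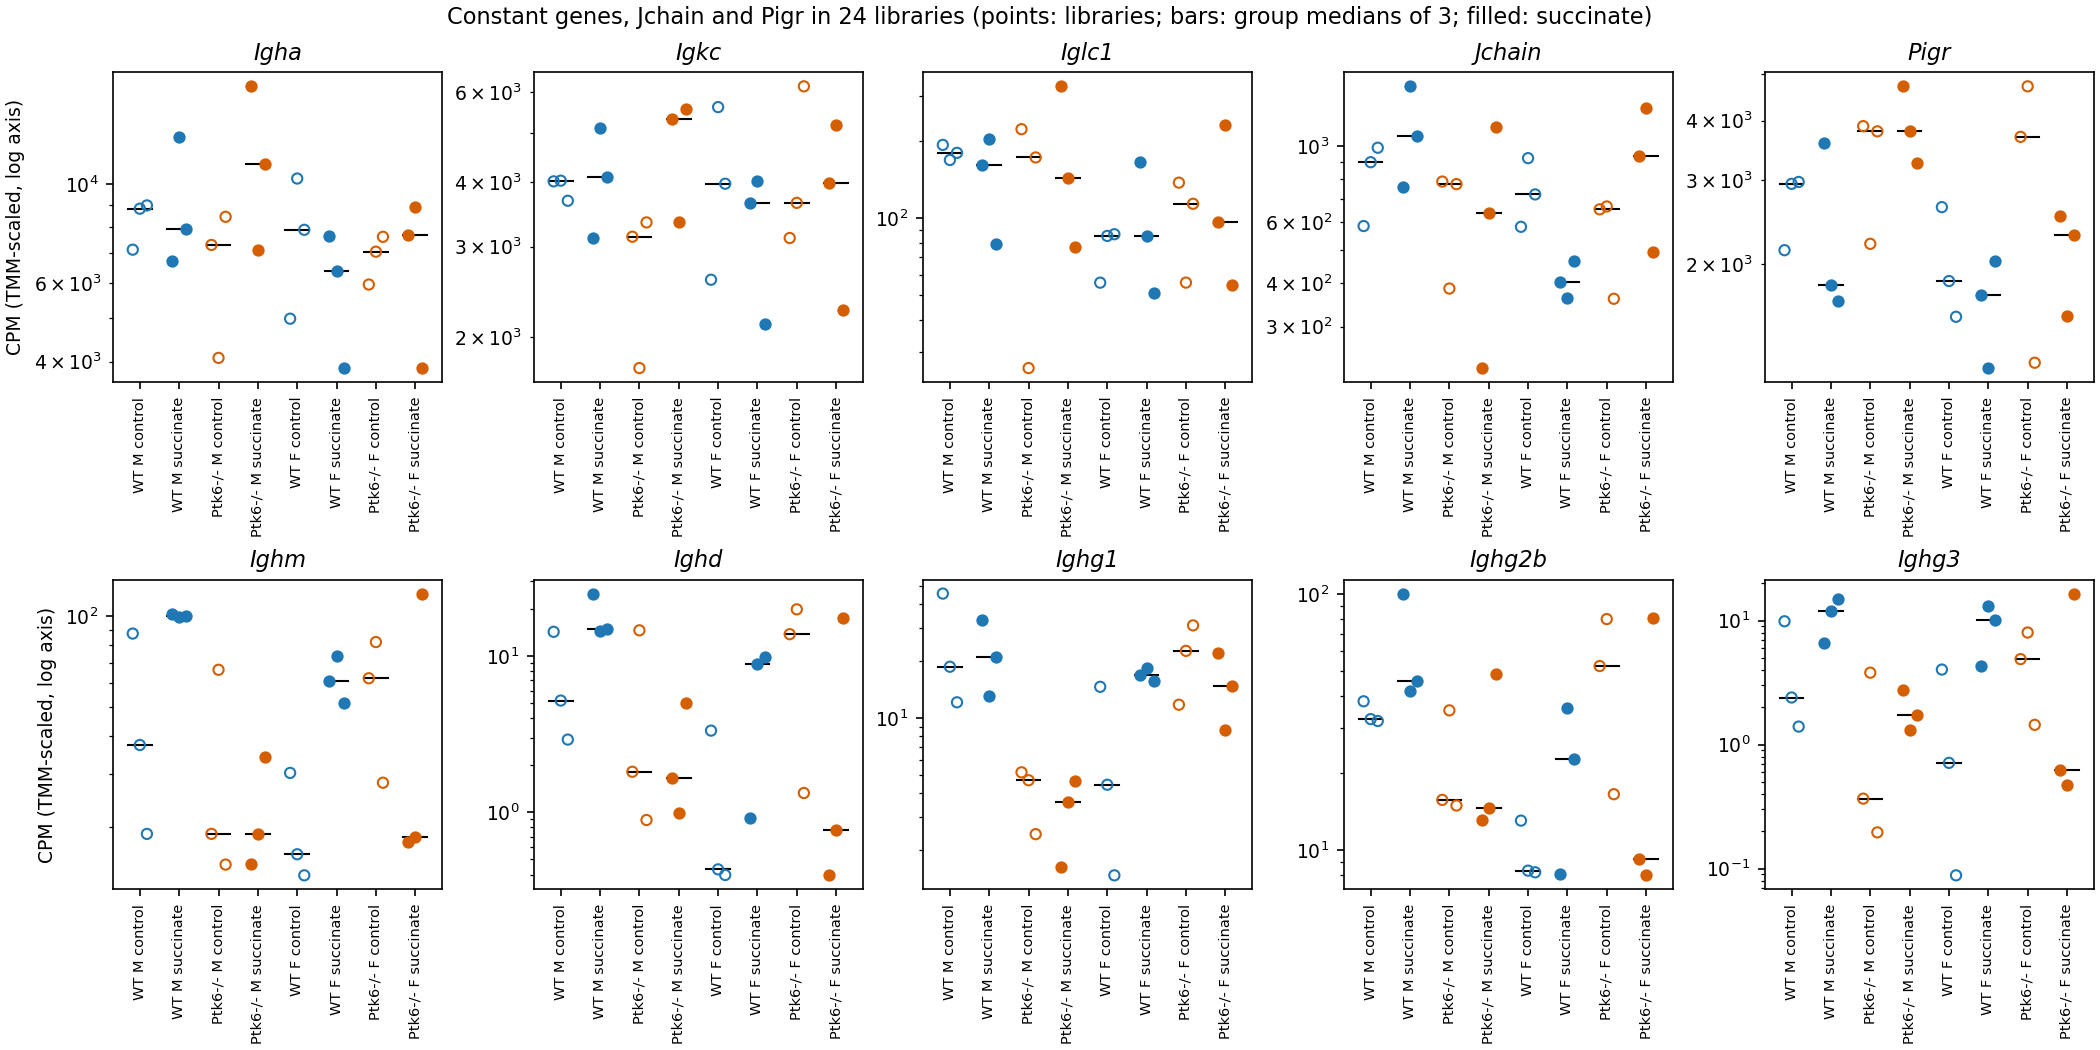
Levels of 8 constant genes, Jchain and Pigr in 24 libraries (y axis, TMM-scaled CPM on a log axis; x axis, 8 groups of 3 mice; open points, control; filled points, succinate; bars, group medians). Igha spanned 3867 to 16597 CPM with overlapping groups, and all 6 Ptk6-/- males lay below all 6 wild type males for Ighg1.

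Succinate left the IgA genes within the spread between mice. Igha in wild type males was at 7133, 8816 and 8967 CPM in controls and at 6711, 12767 and 7921 CPM under succinate. In Ptk6-/- males it was at 7310, 4076 and 8455 CPM in controls and at 16597, 7124 and 11132 CPM under succinate. In wild type females it was at 4992, 10304 and 7904 CPM in controls and at 7673, 6400 and 3867 CPM under succinate. In Ptk6-/- females it was at 5956, 7058 and 7624 CPM in controls and at 7708, 8889 and 3871 CPM under succinate. Control and succinate values overlapped in each of the 4 pairs of groups. With all 24 libraries in 1 fit (edgeR's quasi-likelihood test, Benjamini-Hochberg adjustment over 21694 genes), the log2 fold change of Igha for succinate was 0.14 ± 0.21 (SE), with an adjusted p of 0.783. Igkc gave 0.09 ± 0.20 (adjusted p = 0.864, edgeR). The share of Igha among heavy constant counts averaged 98.1% under succinate and 98.6% in controls, a difference of 0.501 percentage points against a within-group SD of 1.45. Summed heavy, kappa and lambda constant levels (log2 of summed CPM) differed by 0.11, 0.09 and 0.11 between succinate and control, against within-group SDs of 0.48, 0.47 and 0.76.

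Jchain, which joins the IgA monomers, ran from 228 to 1486 CPM. It was at 586, 896 and 987 CPM in wild type male controls and at 762, 1486 and 1070 CPM in wild type males given succinate. In wild type females the 3 control values (583, 921 and 723 CPM) all lay above the 3 succinate values (404, 362 and 463 CPM), a log2 fold change of -0.84 ± 0.32 with an adjusted p of 0.617 (edgeR). Without wild type female succinate 2 it was -0.75 ± 0.33 (adjusted p = 1.00, edgeR). In Ptk6-/- males Jchain was at 788, 387 and 775 CPM in controls and at 228, 639 and 1134 CPM under succinate, and the groups overlapped. In Ptk6-/- females Jchain was at 655, 668 and 361 CPM in controls and at 931, 1282 and 493 CPM under succinate. These 3 succinate values lay above those of wild type females given succinate (log2 fold change 1.14, adjusted p = 0.931, edgeR). Without wild type female succinate 2 that change was 1.04 ± 0.48. The genotypes overlapped in the other comparisons. The test of a different succinate response in Ptk6-/- females gave 1.54 (adjusted p = 0.545, edgeR). Over all 24 libraries the succinate change was 0.07 ± 0.23 (adjusted p = 0.921, edgeR).

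Pigr, the epithelial IgA transporter, ranged from 1208 to 4721 CPM. Ptk6-/- males had 3894, 2203 and 3797 CPM in controls and 4721, 3798 and 3256 CPM under succinate. Wild type males had 2137, 2946 and 2972 CPM in controls and 3588, 1805 and 1669 CPM under succinate. Wild type females had 2631, 1840 and 1548 CPM in controls and 1717, 1208 and 2024 CPM under succinate, and Ptk6-/- females had 3697, 4721 and 1239 CPM in controls and 2520, 1554 and 2295 CPM under succinate. Genotypes overlapped in every one of these pairs. Over all 24 libraries Pigr differed by 0.52 ± 0.21 between Ptk6-/- and wild type (adjusted p = 0.332), by -0.46 ± 0.21 between females and males (adjusted p = 0.306) and by -0.21 ± 0.21 between succinate and control (adjusted p = 0.662, all edgeR), and none passed the threshold.

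The IgG genes ranged more widely relative to their level than Igha did, from 1.48 to 45.4 CPM for Ighg1, 7.97 to 101 for Ighg2b, 0.0883 to 16.5 for Ighg3 and 0 to 3.96 for Ighg2c. The 4 IgG constant genes of the reference share 74.4% to 85.9% of their coding bases, and a short hinge exon of each encodes the stretch that links the antigen-binding arms to the stem. The 4 hinge exons of the GENCODE models on GRCm38 (minus strand) are shown because reads of these genes are told apart only by bases that differ between them. They lie at chr12:113329844-113329882 (Ighg1), chr12:113307261-113307326 (Ighg2b), chr12:113288263-113288325 (Ighg2c) and chr12:113360529-113360576 (Ighg3). In-frame cysteine codons, whose products can form disulfide bonds between chains, are in capitals, and Ighg1, Ighg2b, Ighg2c and Ighg3 have 4, 4, 3 and 1 of them.

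Ighg1: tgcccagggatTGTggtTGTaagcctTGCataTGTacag
Ighg2b: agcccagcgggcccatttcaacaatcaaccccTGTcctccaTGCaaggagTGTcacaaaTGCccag
Ighg2c: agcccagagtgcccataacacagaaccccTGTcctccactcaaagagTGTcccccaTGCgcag
Ighg3: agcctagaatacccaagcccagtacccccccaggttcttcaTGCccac

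Ighg1 encodes the constant region of IgG1, the class linked to type 2 responses in mice. In males it was at 45.4, 18.7 and 12.1 CPM in wild type controls and at 5.17, 4.70 and 2.44 CPM in Ptk6-/- controls. The groups did not overlap. The log2 fold change was -2.66 ± 0.53 with an adjusted p of 0.0383 (edgeR), so Ighg1 was called lower. The same order held among males given succinate, at 32.8, 13.1 and 21.1 CPM in wild type and at 1.65, 3.61 and 4.66 CPM in Ptk6-/- mice (log2 fold change -2.68 ± 0.49, adjusted p = 0.518, edgeR, where no gene of 18904 was called). Females did not follow it. Wild type female controls had 14.6, 4.45 and 1.48 CPM and Ptk6-/- female controls 11.8, 22.6 and 30.8 CPM. Under succinate, wild type females had 16.9, 18.3 and 15.7 CPM and Ptk6-/- females 22.0, 8.60 and 14.7 CPM. In contrasts chosen after these values were seen, the Ptk6-/- effect over both treatments was -2.64 in males (adjusted p = 0.0932, with 0.00922% of all genes called) and 0.75 in females (adjusted p = 0.595, with 0.00461% called), and their difference was -3.39 ± 0.63 with an unadjusted p of 2.71e-05 and an adjusted p of 0.588 (edgeR, all 24 libraries). In the contrast of that difference 45 of 222 members (20.3%) were at an unadjusted p under 0.05, beside 4.58% of all genes, with a median of -1.01 against -0.01 over all genes and none called. Left out singly, wild type female control 1 or 3 brought the male contrast under 0.05 (adjusted p = 0.0119 and 0.0147), and wild type female control 1 the difference (adjusted p = 0.0187). The call in control males was lost with a gene length offset (adjusted p = 0.0697), with a replicate block (0.0539), with both (0.0926), with limma on FPKM (0.337), in the fit of all 24 libraries (0.930) and without any of 5 of the 6 libraries, wild type male control 1 being the exception (adjusted p 0.0357 without it, and 0.0635 to 0.128 without wild type male control 2 or 3 or Ptk6-/- male control 1, 2 or 3).

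Ighm, Ighd and Ighg3 stood high in the same groups. Ighm, the constant gene of naive B cells and IgM, was at 102, 98.9 and 100.0 CPM in wild type males given succinate. Ptk6-/- males given succinate had 15.1, 19.1 and 34.1 CPM, a log2 fold change of -2.11 ± 0.35 that did not pass (adjusted p = 0.382, edgeR, with DESeq2 giving an adjusted p of 6.21e-05). In that comparison Ighg3 gave -2.58 ± 0.49 (adjusted p = 0.601) and Ighd -2.76 ± 0.62 (adjusted p = 0.968), and both were lower in all 3 Ptk6-/- libraries. Without Ptk6-/- male succinate 1, the changes were -1.95 ± 0.31 for Ighm (adjusted p = 0.340), -2.90 ± 0.44 for Ighg3 (adjusted p = 0.317), -2.64 ± 0.71 for Ighd (adjusted p = 0.822) and -2.48 ± 0.47 for Ighg1 (adjusted p = 0.632, all edgeR). Wild type male controls, in contrast, had 87.5, 37.4 and 19.01 CPM of Ighm, and Ptk6-/- male controls 19.02, 66.4 and 15.0 CPM. In females the genotypes overlapped under succinate. Controls had 30.3, 16.3 and 13.9 CPM in wild type and 62.2, 82.0 and 28.1 CPM in Ptk6-/- mice. Under succinate wild type females had 61.1, 73.6 and 51.7 CPM, and Ptk6-/- females 17.9, 18.6 and 119 CPM. The Ighm change in Ptk6-/- females was 1.56 ± 0.46 in controls (adjusted p = 0.367) and -0.25 ± 0.72 under succinate (adjusted p = 0.975), and the test of the difference in succinate response gave -1.78 ± 0.95 (adjusted p = 0.666, all edgeR). The lung transcripts given above were present in all 6 Ptk6-/- females and in wild type female succinate 3, and their part in these differences was not tested. Ptk6-/- female succinate 3 also held the most Ighg3 (16.5 CPM) and the lowest Igha share, 93.9%.

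B cell markers were compared between the same groups, and edgeR called none of them in any comparison. The list of 13 B cell genes (such as Ms4a1, the surface protein CD20, and Cd79a, a signalling chain of the B cell receptor) summed to 154 to 172 CPM in wild type males given succinate and to 22.6 to 55.2 CPM in Ptk6-/- males given succinate. All 13 were lower in that comparison, 11 of them at an unadjusted p under 0.05 (2.72% of all genes were), with a median log2 fold change of -2.22 against -0.03 over all genes, and edgeR called none. Without Ptk6-/- male succinate 1 all 13 were again lower, 11 at an unadjusted p under 0.05, with a median of -2.48 and none called (edgeR). In control females all 13 were higher in Ptk6-/- mice (10 at an unadjusted p under 0.05, where 11.1% of all genes were, median 2.40, none called by edgeR), the comparison in which the summed lung genes differed without overlap (2.54 to 3.29 CPM in wild type and 11.9 to 19.9 CPM in Ptk6-/- mice). With succinate, all 13 were higher in wild type males (median 1.37, 5 at an unadjusted p under 0.05) and in wild type females (median 2.01, again 5), beside 4.07% and 7.77% of all genes at such a p, and edgeR called none. In Ptk6-/- mice 10 of 13 were lower in males (median -0.80, 0 at such a p) and all 13 in females (median -0.78, 1 at such a p). The term for a different succinate response in Ptk6-/- mice was negative for all 13 in males (median -2.14) and in females (median -2.58). Of these terms 0 in males and 1 in females were at such a p, beside 3.95% and 8.21% of all genes, and edgeR called none. Of 7 heavy constant genes tested, 6 were higher with succinate in wild type males (median 1.03) and 6 in wild type females (median 1.64), against 4 in Ptk6-/- males (median 0.24) and 1 in Ptk6-/- females (median -0.55), none called by edgeR. Over all genes the medians were 0.02, 0.03, -0.10 and -0.04 in the same order. For these genes the term for a different succinate response was negative for 6 of 8 in males (median -0.80) and 7 of 8 in females (median -2.03). Of these, 0 in males and 2 in females were at an unadjusted p under 0.05, and edgeR called none. Without wild type male control 1 all 13 B cell genes were higher in wild type males (median 2.56, 12 at an unadjusted p under 0.05), and without wild type female succinate 2 all 12 tested were higher in wild type females (median 1.51, 0 at such a p), none called by edgeR. For fits without a library, the share of all genes at such a p is not given. The summed level of 13 plasma cell genes, to which abundant genes contribute most, ran from 423 to 886 CPM over all libraries, with group medians of 619 to 836 CPM, and 2 of the 13 were at 0 in Ptk6-/- male succinate 1. Sdc1, the plasma cell surface proteoglycan that epithelium also carries, was at 40.0 to 137 CPM. Mzb1, a chaperone of antibody assembly, was at 0 to 24.7 CPM. Tnfrsf17, the survival receptor BCMA, was at 0.661 to 3.99 CPM. Genes of lymphoid follicles were compared in the same males given succinate, and none passed. All 6 germinal centre genes tested were lower in Ptk6-/- mice there (3 at an unadjusted p under 0.05, median -1.58), as were 6 of 8 genes of follicle epithelium and stroma (4 at an unadjusted p under 0.05, median -1.46), and edgeR called none, as it called no gene at all in that comparison. Without Ptk6-/- male succinate 1, 5 of 6 and 7 of 8 were lower (medians -1.27 and -1.33). The part of B cell and follicle content in the differences of Ighm, Ighd and the IgG genes was not tested. The follicle genes Gp2 (a receptor of M cells), Ccl20 and Cxcl13 (chemokines of lymphoid follicles) were not called by edgeR in any comparison, with levels of 0 to 2.71, 0 to 28.5 and 0.370 to 9.47 CPM.

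Across the 24 mice, Ighm followed Ms4a1 (CD20) closely, with a Pearson r of 0.927 and a Spearman rho of 0.936 (each with a permutation p of 1.0e-05, the smallest that 100000 resamples can give, and 6.0e-05 after Benjamini-Hochberg adjustment over 6 pairs of genes). Without the 2 libraries farthest from the median r was 0.914, and it was 0.986 in the 12 controls and 0.904 in the 12 succinate libraries. Jchain followed Mzb1 (r = 0.719, adjusted permutation p = 6.0e-05; rho = 0.679, adjusted p = 0.0012; r = 0.556 without the 2 farthest libraries), with r = 0.442 in controls (adjusted p = 0.187) and 0.784 under succinate (adjusted p = 0.00171). Jchain and Igha gave r = 0.292 (permutation p = 0.166, adjusted 0.228) and rho = 0.573 (permutation p = 0.00423, adjusted 0.00846). This relation turned on Ptk6-/- male succinate 1, which had the most Igha (16597 CPM) and the least Jchain (228 CPM), and r was 0.711 without it and 0.654 without the 2 farthest libraries. For Igha and Ighm the rank correlation passed and Pearson's did not (r = -0.413, adjusted permutation p = 0.0903; rho = -0.475, adjusted p = 0.0293; r = -0.338 without the 2 farthest libraries). Jchain showed no relation that passed with Igkc (r = 0.278, adjusted permutation p = 0.228) or Pigr (r = 0.0194, adjusted permutation p = 0.928).

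**Figure D2:**
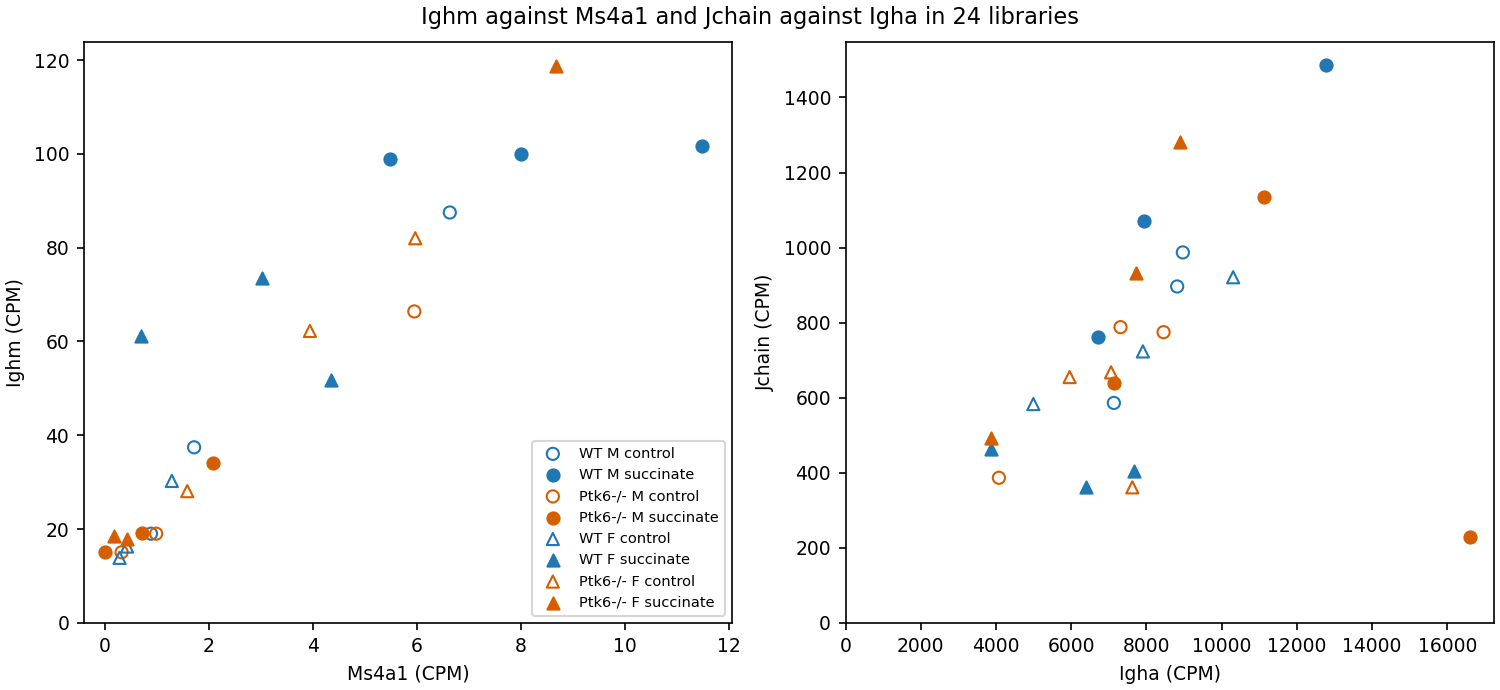
Ighm against Ms4a1 (left) and Jchain against Igha (right) in 24 libraries, in CPM (circles, males; triangles, females; blue, wild type; orange, Ptk6-/-; filled, succinate). For the pair of the left panel r was 0.927 on log2(CPM + 1) values. In the right panel the library at 16597 CPM of Igha and 228 CPM of Jchain lies away from the others.

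Ighe, the constant gene of IgE, was close to the limit of detection. It had counts in 3 of 12 control libraries (6, 4 and 10 counts, 20 in all) and in 8 of 12 succinate libraries (5 to 43 counts, 139 in all). All 3 wild type males given succinate had counts (26, 26 and 5), against 0, 6 and 0 in their controls, and the 43 counts were in Ptk6-/- male succinate 3. The log2 fold change over all 24 libraries was 3.25 ± 1.05, with an unadjusted p of 0.0059 and an adjusted p of 0.159 (edgeR), and it was not called. A library with 0 counts allows up to 3 counts, which is counting error only.

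A few V segments led each class, and the leading Ighv segment changed from mouse to mouse. Igkv6-23 (chromosome 6, 70237393 to 70237939 on GRCm39) led kappa usage in 18 of 24 libraries, with a mean share of 14.6% ± 5.62 (SD, n = 24) of Igkv counts and a range of 6.51% to 25.4%. Igkv10-96 (5.59%), Igkv1-135 (3.99%), Igkv1-110 (3.90%) and Igkv1-117 (3.71%) followed in mean share. Ighv1-26 (chromosome 12, 114751992 to 114752425) led heavy chain usage in 6 libraries, with a mean share of 6.85% ± 3.03 (SD, n = 24), before Ighv3-6 (5.39%), Ighv1-39 (4.43%), Ighv1-15 (4.18%) and Ighv1-19 (4.08%). Altogether 14 Ighv segments and 6 Igkv segments led at least 1 library. Iglv1 led in all 24, with 88.7% to 100% of Iglv counts (mean 94.8%), before Iglv2 (4.09%) and Iglv3 (1.12%). All 3 wild type females given succinate were at the low end for Iglv1, at 88.7%, 90.4% and 90.2%. By family, Ighv1 with 54 members took 63.6% ± 6.72 (SD) of Ighv counts, and Igkv6, Igkv4 and Igkv1 took 24.7%, 16.2% and 13.8% of Igkv counts. Over the mean shares, 14 Ighv and 12 Igkv segments made up 50% of usage.

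The V exon sequences of the 2 most used segments, of 2 segments that dominated 1 mouse each and of 2 that were called for succinate are given below, because segments this alike can trade reads. They are the last 300 bases or fewer of the V exon of the GENCODE model on GRCm38, 5′ to 3′ on the coding strand, and capitals mark bases that differ from the most similar other member. Ighv1-26 (chr12:114788372-114788671) is 97.4% identical to Ighv1-18, Igkv6-23 (chr6:70260409-70260706) is 96.0% identical to Igkv6-13, and Ighv14-2 (chr12:113994469-113994768) is 97.0% identical to Ighv14-1. Igkv4-63 (chr6:69377944-69378243) is 92.4% identical to Igkv4-59, Ighv1-63 (chr12:115495625-115495924) is 92.8% identical to Ighv1-54, and Igkv4-72 (chr6:69226854-69227153) is 95.7% identical to Igkv4-68. The number of capitals runs from 8 in Ighv1-26 to 23 in Igkv4-63. All 6 lie on the minus strand.

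Ighv1-26: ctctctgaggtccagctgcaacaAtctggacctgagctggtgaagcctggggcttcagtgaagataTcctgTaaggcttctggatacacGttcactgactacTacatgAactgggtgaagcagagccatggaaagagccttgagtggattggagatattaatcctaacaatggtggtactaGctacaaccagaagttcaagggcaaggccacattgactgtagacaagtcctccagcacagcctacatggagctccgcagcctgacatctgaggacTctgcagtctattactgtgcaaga
Igkv6-23: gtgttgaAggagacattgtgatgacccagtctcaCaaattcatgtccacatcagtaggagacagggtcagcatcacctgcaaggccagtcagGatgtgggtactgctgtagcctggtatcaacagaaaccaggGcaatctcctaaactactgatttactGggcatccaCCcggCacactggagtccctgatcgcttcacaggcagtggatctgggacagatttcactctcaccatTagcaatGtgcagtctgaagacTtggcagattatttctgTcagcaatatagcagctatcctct
Ighv14-2: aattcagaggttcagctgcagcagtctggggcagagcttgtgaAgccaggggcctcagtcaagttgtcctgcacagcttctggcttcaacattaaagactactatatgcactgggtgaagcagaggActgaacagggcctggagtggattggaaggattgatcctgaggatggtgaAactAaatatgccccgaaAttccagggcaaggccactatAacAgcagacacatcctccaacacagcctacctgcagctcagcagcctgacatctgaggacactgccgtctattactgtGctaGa
Igkv4-63: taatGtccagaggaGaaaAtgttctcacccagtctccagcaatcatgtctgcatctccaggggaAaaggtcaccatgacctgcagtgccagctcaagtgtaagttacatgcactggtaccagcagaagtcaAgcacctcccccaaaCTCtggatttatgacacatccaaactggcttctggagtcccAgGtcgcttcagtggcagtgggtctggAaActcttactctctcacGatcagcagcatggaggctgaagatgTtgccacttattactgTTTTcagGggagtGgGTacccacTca
Ighv1-63: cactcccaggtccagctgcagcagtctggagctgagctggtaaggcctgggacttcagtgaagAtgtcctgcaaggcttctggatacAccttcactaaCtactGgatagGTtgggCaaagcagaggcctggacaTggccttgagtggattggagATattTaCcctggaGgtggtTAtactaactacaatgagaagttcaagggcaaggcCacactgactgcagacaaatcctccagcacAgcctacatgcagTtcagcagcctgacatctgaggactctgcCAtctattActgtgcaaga
Igkv4-72: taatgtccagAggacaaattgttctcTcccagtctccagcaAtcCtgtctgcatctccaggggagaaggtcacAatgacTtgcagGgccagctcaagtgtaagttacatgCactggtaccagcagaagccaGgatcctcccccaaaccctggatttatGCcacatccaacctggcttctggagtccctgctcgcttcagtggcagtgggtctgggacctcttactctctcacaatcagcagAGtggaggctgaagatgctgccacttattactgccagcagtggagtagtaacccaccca

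Over the 94 Ighv members with a reference V exon, the median identity to the closest other member was 95.4%, and 54 were at 95% or more. For 91 Igkv members it was 93.9%, and 41 were at 95% or more. Counts of single V segments are therefore uncertain between close relatives, and somatic mutation of expressed genes can add to this.

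Single mice stood out by single segments. In Ptk6-/- female succinate 3, Igkv4-63 took 32.9% of Igkv counts (Wilson 95% interval 32.4% to 33.4%, which covers counting error only), whereas its median share over all libraries was 0.0302%. Ighv14-2 took 22.6% (22.1% to 23.1%) of Ighv counts in the same library, against a median of 0.986%. Its mates in the group had other leaders, namely Ighv1-63 (12.5%) with Igkv10-96 (19.3%) in library 1 and Ighv8-12 (15.6%) with Igkv8-30 (17.2%) in library 2. In wild type female control 2, Igkv1-133 took 20.01% of Igkv counts (median over all libraries 0.276%) and Ighv1-12 took 12.3% of Ighv counts (median 0.683%). Ighv1-15 took 19.8% in wild type female control 3, and Ighv1-53 took 19.2% in Ptk6-/- male succinate 3. The top Ighv share ranged from 5.58% to 22.6% and the top Igkv share from 9.05% to 32.9%, and both lowest values were in wild type female succinate 1.

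**Figure D3:**
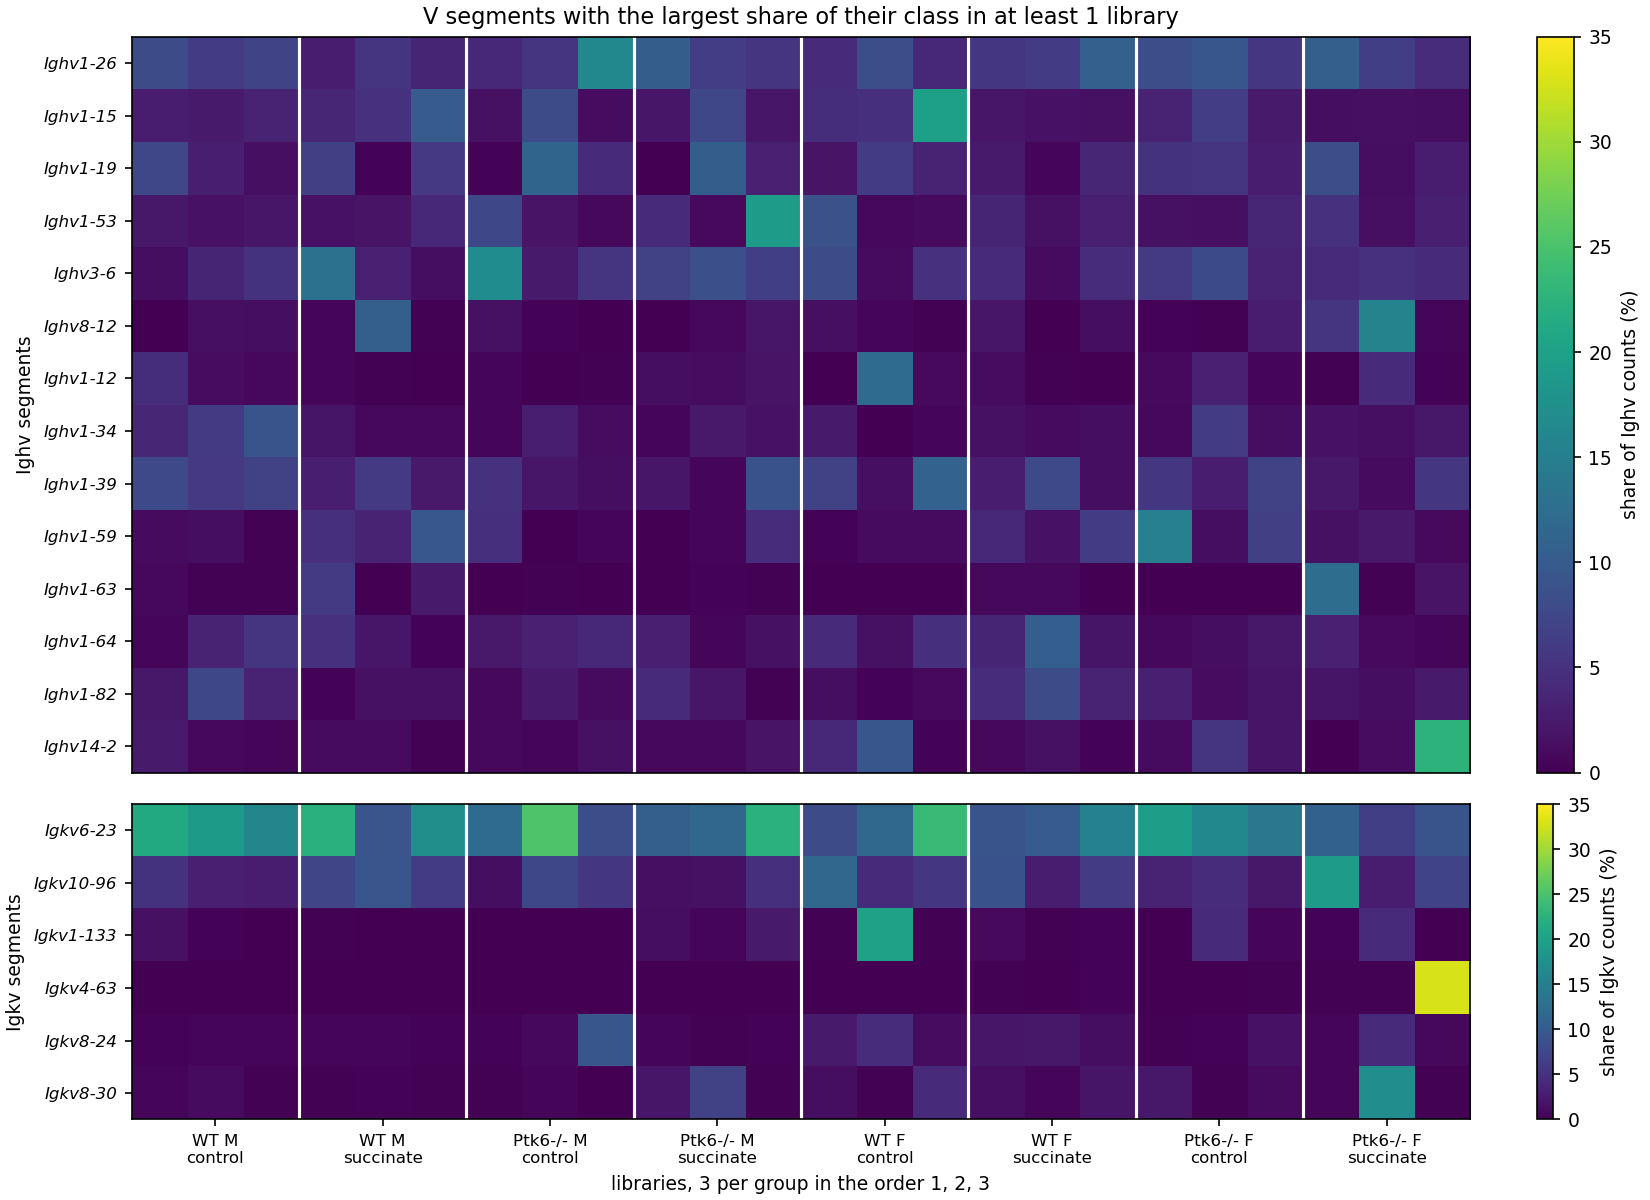
Share of each class's counts (colour, %) taken by the 14 Ighv segments and 6 Igkv segments that led at least 1 of 24 libraries (columns, 3 per group, white lines between groups). Igkv6-23 is bright in most columns, while Igkv4-63 reached 32.9% in a single column.

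The evenness of V usage differed by less than the within-group SD for succinate, for genotype and for sex. Evenness was the Shannon entropy of the segment shares divided by the log of the number of member segments, so that 1 means equal use of all. For Ighv it was 0.792, 0.809 and 0.743 in wild type male controls, 0.778, 0.745 and 0.738 in wild type males given succinate, 0.748, 0.778 and 0.743 in Ptk6-/- male controls and 0.723, 0.755 and 0.707 in Ptk6-/- males given succinate. In females it was 0.775, 0.720 and 0.707 in wild type controls, 0.824, 0.759 and 0.776 in wild type mice given succinate, 0.756, 0.762 and 0.801 in Ptk6-/- controls and 0.746, 0.778 and 0.752 in Ptk6-/- mice given succinate. Most pairs of groups overlapped. The exceptions were the Ptk6-/- males given succinate, which lay below the wild type females given succinate and below the Ptk6-/- female controls, pairs that differ in more than 1 factor. The lowest and highest libraries were Ptk6-/- male succinate 3 and wild type female succinate 1. The mean difference was -0.00428 for succinate, -0.00977 for Ptk6-/- and 0.00808 for females, against a within-group SD of 0.0271. Igkv evenness ranged from 0.643 to 0.784, with differences of -0.00309, -0.00573 and -0.00218 against an SD of 0.0376. Wild type female controls, at 0.660 to 0.734, lay below wild type females given succinate (0.748 to 0.784) and below Ptk6-/- female controls (0.740 to 0.783) in Igkv evenness. All other pairs of groups overlapped for Igkv, and these 2 separations were picked out after the values were seen and carry no test. As an effective number of segments (inverse Simpson index), Ighv usage ran from 14.2 to 34.6 and Igkv usage from 7.62 to 24.1, with the lowest Igkv value in Ptk6-/- female succinate 3. Drawn down to 500 counts per library, 39.0 to 65.0 Ighv and 41.6 to 60.6 Igkv segments were seen. The lowest of both were in Ptk6-/- male succinate 1, which held 531 Ighv and 724 Igkv counts.

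**Figure D4:**
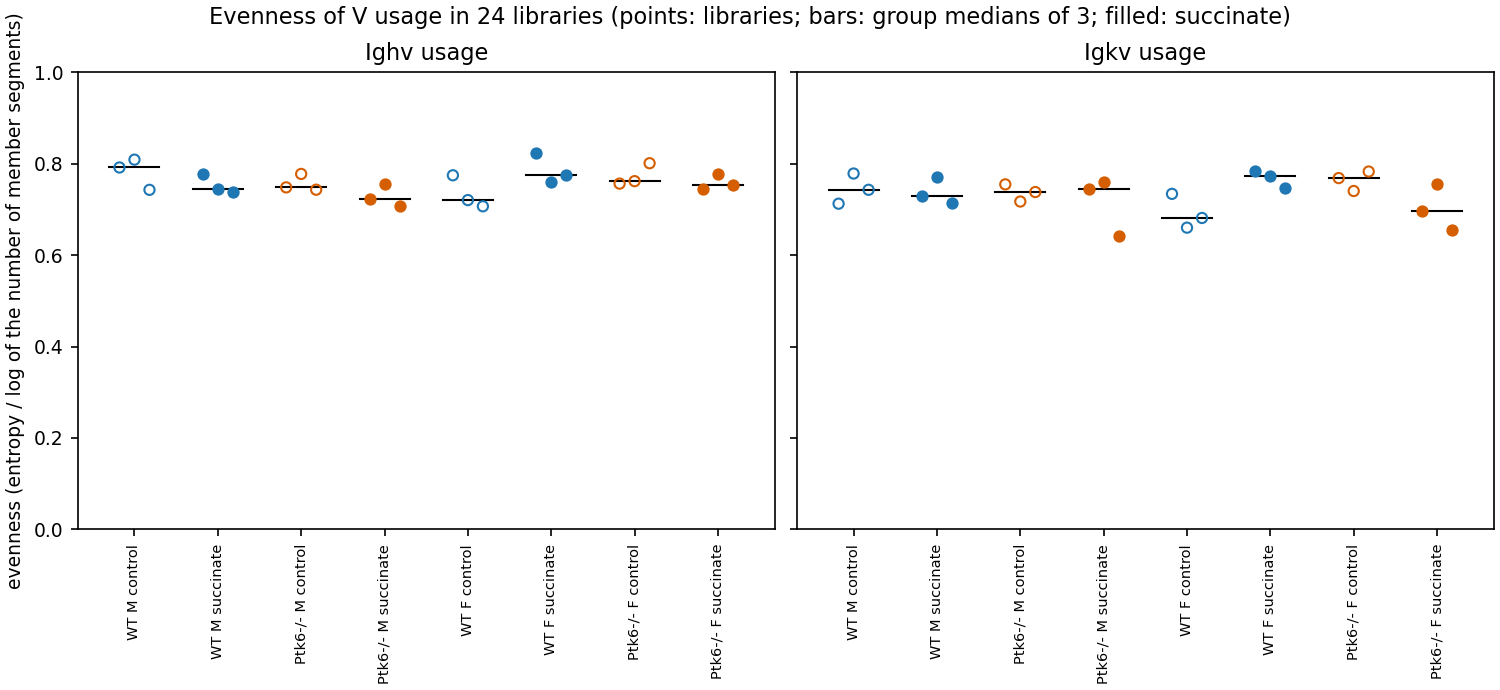
Evenness of Ighv (left) and Igkv (right) usage per library (y axis, from 0 to 1; x axis, 8 groups of 3 mice; bars, group medians). Values lay between 0.707 and 0.824 for Ighv and between 0.643 and 0.784 for Igkv, and wild type female controls lay below wild type females given succinate for Igkv.

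Likeness of V usage within a group lay close to that between groups. The Morisita-Horn likeness of Ighv shares (1 for identical shares) had a median of 0.561 over 24 pairs within a group and 0.534 over 252 pairs between groups. For Igkv the medians were 0.615 and 0.640. Only 3 libraries for Ighv and 5 for Igkv were most like a library of their own group. The highest likeness in either class was between wild type male controls 2 and 3, at 0.904 for Ighv and 0.963 for Igkv.

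The amount of V sequence relative to constant sequence differed widely between libraries. Ighv counts per 100 heavy constant counts ran from 0.875 to 21.8, and Igkv counts per 100 Igkc counts from 3.73 to 46.2. They are given beside a property of the whole library, the fitted increase of log2 CPM per doubling of gene length (the length slope), which ran from 0.681 to 0.9498. The libraries with 21.8, 19.3 and 18.7 Ighv counts per 100 had slopes of 0.9498, 0.917 and 0.881. Those with 0.875, 3.64, 3.73 and 3.78 had slopes of 0.685, 0.715, 0.726 and 0.688. Wild type female succinate 2 departed from this order, with 1.70 Ighv counts per 100 at a slope of 0.843, and so did Ptk6-/- female succinate 2, with 7.54 at the lowest slope, 0.681. V segments lie at the 5′ end of these transcripts and constant genes at the 3′ end. The part of the length slope in these ratios was not tested. All 3 Ptk6-/- male controls had steeper slopes (0.9498, 0.902 and 0.893) than the 3 wild type male controls (0.753, 0.794 and 0.795). Summed V levels (log2 of summed CPM) differed by -0.59 for succinate, 0.32 for Ptk6-/- and -0.53 for females, against a within-group SD of 0.78.

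**Figure D5:**
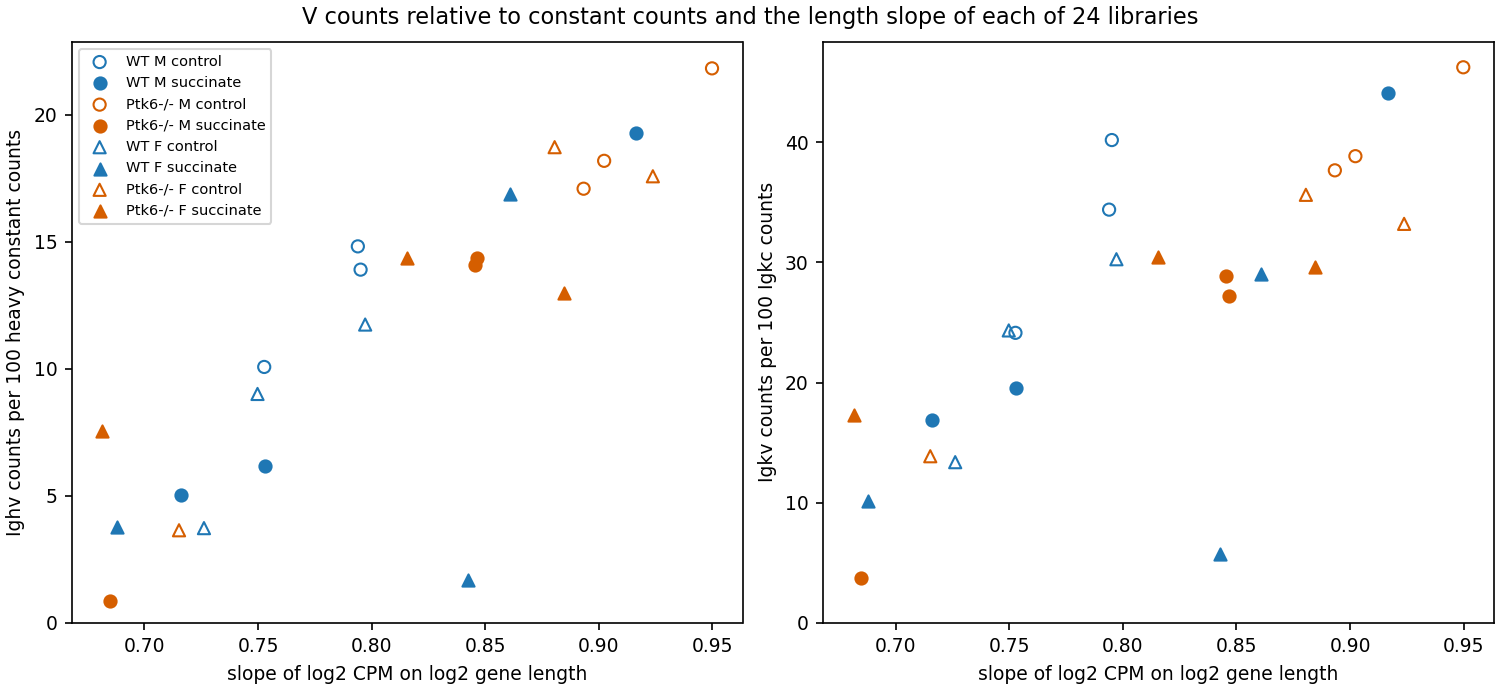
Ighv counts per 100 heavy constant counts (left) and Igkv counts per 100 Igkc counts (right) against the length slope of each of 24 libraries (circles, males; triangles, females; filled, succinate). The ratios ran from 0.875 to 21.8 and from 3.73 to 46.2, with wild type female succinate 2 low at a slope of 0.843.

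Genes were called at an adjusted p under 0.05 and a fold change of at least 2. For succinate against control over all 24 libraries, 1 member was called higher and 1 lower among 222 tested, when 0.728% of all 21694 genes were called. At an unadjusted p under 0.05 there were 47 members (21.2%), beside 16.1% of all genes. Igkv4-72 was lower (log2 fold change -2.11 ± 0.41, adjusted p = 0.0129, edgeR). It fell from 19.4, 35.05 and 51.3 CPM in wild type male controls to 12.7, 9.37 and 8.17 CPM, and from 23.9, 20.5 and 20.9 CPM in wild type female controls to 3.86, 5.48 and 4.48 CPM, with no overlap in either pair. In Ptk6-/- males it was at 137, 17.4 and 24.1 CPM in controls and at 5.21, 1.39 and 20.02 CPM under succinate, and in Ptk6-/- females at 25.8, 35.7 and 3.06 CPM and at 5.37, 10.1 and 4.53 CPM, with overlap in both. The call held without each of the 24 libraries in turn, was lost without the 3 libraries that stood apart together (adjusted p = 0.0558) and on log2(FPKM + 1) values with limma (0.0736). Ighv1-63 was higher (3.50 ± 0.79, adjusted p = 0.0322, edgeR). Its level rested on few mice, with 139 CPM in Ptk6-/- female succinate 1, 79.4 CPM in wild type male succinate 1 and at most 12.9 CPM elsewhere, and 0 CPM in Ptk6-/- male succinate 1 and in wild type female controls 2 and 3. The call was lost when any 1 of 16 libraries was left out, Ptk6-/- female succinate 1 among them (2.71, adjusted p = 0.0596), and without the 3 libraries together (adjusted p = 0.0841).

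Within each sex and genotype, no member was called for succinate by edgeR. Of all genes tested, none was called in wild type males, wild type females and Ptk6-/- males (0%), and 0.0879% were called in Ptk6-/- females. At an unadjusted p under 0.05 the members numbered 47 of 194, 27 of 175, 36 of 186 and 37 of 192, in the order wild type males, wild type females, Ptk6-/- males and Ptk6-/- females. These are 24.2%, 15.4%, 19.4% and 19.3% of the members tested, beside 4.07%, 7.77%, 7.75% and 10.7% of all genes tested. DESeq2 called 12, 8, 3 and 8 members, when it called 0.246%, 1.38%, 0.206% and 2.26% of all genes. Voom with quality weights called 51, 1, 0 and 3 members and 7.81%, 0.196%, 0.0844% and 1.03% of all genes. Jchain, Igha and Pigr were not among the members with the smallest p in these comparisons, which were Ighv1-9 (-3.96 ± 0.69, adjusted p = 0.947), Igkv4-72 (-2.23 ± 0.26, adjusted p = 0.177), Igkv13-84 (-5.89 ± 1.07, adjusted p = 0.600) and Igkv3-7 (-5.03 ± 1.27, adjusted p = 0.329, all edgeR), in the same order of groups. The 4 comparisons share no libraries with one another.

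Between the genotypes, 11 members were called in male controls, 3 higher and 8 lower in Ptk6-/- mice among 195 tested, when 0.739% of all genes were called. At an unadjusted p under 0.05 there were 57 members (29.2%), beside 25.2% of all genes. The lower members were Ighg1, described above, and Igkv4-57, Ighv5-9, Ighv1-9, Ighv3-8, Igkv3-7, Igkv14-130 and Ighv1-5. Igkv4-57 was at 40.4, 81.7 and 113 CPM in wild type and at 6.55, 14.2 and 8.80 CPM in Ptk6-/- mice (-2.99 ± 0.39, adjusted p = 0.019998, edgeR). Ighv5-9 was at 4.04, 3.00 and 1.96 CPM in wild type and at 0, 0.139 and 0.283 CPM in Ptk6-/- mice (-4.44 ± 0.85, adjusted p = 0.0364, edgeR). Ighv1-9 was at 12.4, 77.5 and 97.3 CPM in wild type and at 5.96, 3.94 and 8.67 CPM in Ptk6-/- mice. The 2 libraries that carry most of its wild type signal, controls 2 and 3, are the pair most alike in V usage. The higher members were Ighv5-17 (7.76, 12.4 and 7.27 CPM in wild type, 27.2, 18.5 and 27.9 CPM in Ptk6-/- mice), Ighv1-50 (0.647, 1.22 and 0.263 CPM against 4.66, 4.89 and 3.14 CPM) and Ighv9-4 (0.404, 0.261 and 0.607 CPM against 45.5, 2.85 and 4.90 CPM), with log2 fold changes of 1.40, 2.54 and 5.39 and adjusted p of 0.0321, 0.0397 and 0.0444 (edgeR). No other constant gene was called, although Iglc2 (-0.82, adjusted p = 0.0464) passed on p and not on fold change. The length slopes given above differed between these groups without overlap, and with a gene length offset 2 of the 11 calls were left. All 11 kept their direction with the offset, their log2 fold changes moved by 0.0489 to 0.535, and their adjusted p ran from 0.0431 to 0.1095 (edgeR). With wild type male control 1 left out 24 members were called, 6 of them among the 11, while none was without wild type male control 2 or 3 or Ptk6-/- male control 3.

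In the other comparisons of the genotypes edgeR called no member. The share of all genes called was 0.0158% in female controls, 0% in females given succinate, 0% in males given succinate and 0.0184% over all 24 libraries. Members at an unadjusted p under 0.05 numbered 34 of 183, 33 of 182, 34 of 186 and 39 of 222, in the same order. These are 18.6%, 18.1%, 18.3% and 17.6% of the members tested, beside 11.1%, 4.52%, 2.72% and 13.4% of all genes tested. DESeq2 called 14, 4, 9 and 6 members and 1.58%, 0.142%, 0.362% and 0.295% of all genes. Voom with quality weights called 34, 0, 32 and 14 members and 10.4%, 0%, 9.51% and 7.09% of all genes. On FPKM limma called 0, 1, 0 and 0 members and 0.0216%, 0.0139%, 0.00733% and 0.0142% of all genes. The members with the smallest p were Ighv1-78 (5.20 ± 1.17, adjusted p = 0.367), Ighv14-4 (adjusted p = 0.779), Ighm (given above) and Ighv14-4 again (2.94 ± 0.63, adjusted p = 0.197, all edgeR). Ighv14-4 had no count in any wild type female given succinate and 84, 83 and 82 counts in the Ptk6-/- females given succinate, against a floor of 3 counts per library. Without wild type female succinate 2 the adjusted p of that comparison was 1.00 (edgeR). Over all 24 libraries the median log2 fold change of the members was 0.40 between Ptk6-/- and wild type and -0.35 between succinate and control, against -0.03 and -0.00 over all genes. The term for a different succinate response in Ptk6-/- mice called no member and 0% of genes in either sex. Members at an unadjusted p under 0.05 numbered 30 in males and 31 in females of 222 (13.5% and 14%, beside 3.95% and 8.21% of all genes). DESeq2 called 2 and 4 members and 0.516% and 0.275% of all genes, and voom with quality weights 1 and 0 members and 0.106% and 0.00922% of all genes. The members with the smallest p were Ighv9-4 in males (-7.86 ± 1.73, adjusted p = 0.351) and Igkv4-70 in females (-5.87 ± 1.75, adjusted p = 0.468, both edgeR).

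Between females and males, 2 of 222 members were called, both lower in females, when 0.36% of all genes were called. Igkv17-127 (-1.26 ± 0.28, adjusted p = 0.0486, edgeR) was at 4.66 to 24.4 CPM in the 12 males and at 1.76 to 14.4 CPM in the 12 females, with medians of 15.95 and 5.26 CPM, and the ranges overlapped. Ighv14-4 (-2.95 ± 0.63, adjusted p = 0.0451, edgeR) ran from 0 to 3.68 CPM in males and from 0 to 1.64 CPM in females, and it was at 0 in 4 of 6 wild type females. Without the 3 libraries that stood apart, among them the one with Y-linked transcripts, Igkv17-127 stayed called (-1.58, adjusted p = 0.0144) and Ighv14-4 did not (-3.05, adjusted p = 0.0769). Each of these calls was lost without most single libraries, 17 of 24 for Igkv17-127 and 16 of 24 for Ighv14-4. At an unadjusted p under 0.05 there were 52 members (23.4%), beside 15.3% of all genes, and the median log2 fold change of the members was -0.50, against 0.03 over all genes. All 5 gut smooth muscle genes tested were higher in females (median 0.73, 4 at an unadjusted p under 0.05) and all 5 epithelial genes lower (median -0.29, 0 at such a p). Also lower were 12 of 13 B cell genes (median -0.41, 0 at such a p), 10 of 13 plasma cell genes (median -0.10, 1 at such a p) and all 7 T cell genes (median -0.36, 1 at such a p). EdgeR called none of these genes, and their part in the members' difference was not tested. The 4 Y-linked genes were called lower in females, from -8.46 for Eif2s3y to -6.82 for Uty (edgeR).

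Genes around IgA production were read from gene lists. Of 21 genes of IgA induction and plasma cell homing, 20 were tested over all libraries, and Tnfsf13b (BAFF, a B cell survival factor) rose with succinate (1.16 ± 0.22, adjusted p = 0.0100) while Nos2 (inducible nitric oxide synthase) fell (-2.26 ± 0.47, adjusted p = 0.0214, both edgeR). Tnfsf13b was at 7.30 to 14.8 CPM in the 12 controls and at 10.4 to 72.1 CPM in the 12 succinate libraries. Nos2 was also lower in females than in males (-2.11 ± 0.47, adjusted p = 0.0489, edgeR). Of 6 germinal centre genes, Rgs13 rose (1.82 ± 0.33, adjusted p = 0.0055), and of 8 genes of follicle epithelium and stroma, Spib rose (1.37 ± 0.31, adjusted p = 0.0365, both edgeR). Both genes are also known from tuft cells, and Rgs13 was called in Ptk6-/- females alone as well (3.65, adjusted p = 0.0494, edgeR). Over all 24 libraries the medians of the IgA induction, germinal centre and follicle lists were 0.05, 0.08 and 0.07, against -0.00 over all genes. Of all genes, 0.728% were called for succinate there. Muscle genes were called in the same fit, with Actg2, a smooth muscle actin, at 1.12 (adjusted p = 0.0356) and Actc1, a cardiac actin, at 3.62 (adjusted p = 0.00843, both edgeR), the latter with 3058 CPM in wild type female succinate 2 and at most 33.0 CPM elsewhere. None of the 13 B cell, 13 plasma cell, 7 T cell or 9 immunoglobulin receptor genes was called by edgeR for succinate over all 24 libraries. At an unadjusted p under 0.05 they numbered 2, 3, 3 and 1, in a contrast where 16.1% of all genes were at such a p, and the list medians were 0.51, -0.11, -0.44 and 0.10.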

How the data were processed

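Poly(A) RNA of distal jejunum from 24 mice was sequenced with strand information. Per the study's methods the authors trimmed and aligned reads, assembled and quantified transcripts with StringTie, and checked read quality with FastQC. The submitters' notes name GRCm39, and the program that made the gene counts is not given in the sources used here. The authors deposited whole-number counts per gene and, in a second table, FPKM per gene. Columns of the authors' own comparisons were not used.

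The members and gene lists were chosen with earlier results of these data known. Counts were tested with edgeR 4.0.16 (quasi-likelihood, TMM scaling, a gene entering a fit when 3 or more of its libraries held 10 or more counts). P-values were adjusted over all genes tested by Benjamini-Hochberg, and a call needed an adjusted p under 0.05 and a fold change of at least 2. Comparisons of 2 groups used their 6 libraries, and the effects of succinate, genotype, sex and their interaction used all 24. CPM were counts relative to the TMM-scaled library total. Some comparisons share libraries. By its label each library is 1 animal, so p-values measure the spread between libraries of different animals. That spread includes the heart muscle, Y-linked and lung transcripts that some libraries held. Correlations used log2(CPM + 1) and permutation tests. Wilson intervals and floors of 3 counts cover counting error only. Named genes were every constant gene, Jchain, Pigr, the V segments with the highest mean share or leading any library, the members called or with the smallest p, the list genes called and markers that define the lists. Genes of the lists that this rule names are given, except 2 that are not reported here. The fits were tested on simulated data. The alternatives were DESeq2 1.42.0, limma 3.58.1 (voom with quality weights, and log2(FPKM + 1)), other scalings, no filter, a gene length offset, a replicate block, and each library left out. After the data were seen, fits without 3 libraries and contrasts within each sex were added.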

Additional observations from a re-analysis of the deposited data

Results flagged for a closer look

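Among the named members, chosen by the rule given with the processing, 5 showed opposite changes of the same contrast in 2 settings. With 3 mice per group, the groups did not overlap in either setting, and their order was reversed between the settings. No interaction term passed an adjusted p of 0.05 (edgeR). The count is of named members only, some of which were chosen for their values in these data. How many such reversals would arise by chance was not tested. All changes are log2 fold changes.

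Ighg2c, an IgG constant gene, changed with succinate by -1.40 in Ptk6-/- females and by 2.36 in wild type females, and the test of the difference gave -3.73 ± 1.26 (adjusted p = 0.468). Igkv1-133 differed between Ptk6-/- and wild type males by -3.17 in controls and by 3.88 under succinate, and the test of the difference gave 7.03 ± 2.50 (adjusted p = 0.968).

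Ighv1-63 differed between the genotypes by 3.68 in female controls and by -2.03 in male controls. Igkv4-57 differed by 2.83 in female controls and by -2.99 in male controls. Within controls the difference between the sexes was not tested. Over both treatments it was -7.42 ± 1.59 for Ighv1-63 (adjusted p = 0.773) and -3.12 ± 0.87 for Igkv4-57 (adjusted p = 0.863). Ighv1-82 changed with succinate by 1.55 in wild type females and by -2.86 in wild type males, and that difference was not tested.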

How the results depend on the processing

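The summed levels, the Igha share and the evenness of V usage moved by less than the within-group SD under every alternative run. Counts of called members depended on the tool. For Ptk6-/- against wild type in male controls, edgeR called 11, DESeq2 36, voom with quality weights 42 and the fit without a filter 26. In that comparison a gene length offset left 2, a replicate block 0, the block with the length offset 1, limma on FPKM 0, the fit of all 24 libraries 0, and the fit without the 3 libraries that stood apart 24. DESeq2 called 2.29% and voom 3% of all genes there. For female controls DESeq2 called 14 and voom 34, for males given succinate 9 and 32 (and 1 without the 3 libraries), and for females given succinate DESeq2 called 4 and limma on FPKM 1. For succinate, DESeq2 called 12 in wild type males, 3 in Ptk6-/- males, 8 in wild type females and 8 in Ptk6-/- females, voom 51 in wild type males, 1 in wild type females and 3 in Ptk6-/- females, and the fit without the 3 libraries 1 in wild type males. Over all 24 libraries the 2 succinate calls became 14 with DESeq2, 6 with voom, 1 with the replicate block, 1 with block and length offset, and 0 with FPKM or without the 3 libraries, when DESeq2 called 2.04% and voom 3.68% of all genes. The genotype calls went from 0 to 6 with DESeq2 and 14 with voom. The 2 calls between the sexes became 11 with DESeq2, 1 with the replicate block, 1 with the length offset, 0 with both, 0 with FPKM and 1 without the 3 libraries, when DESeq2 called 1.56% of all genes. The interaction calls were 2 (DESeq2) and 1 (voom) in males and 4 (DESeq2) in females. The cause was not tested.

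Leaving out 1 library at a time gave 0 to 24 calls in male controls, 0 to 23 in female controls (23 without Ptk6-/- female control 3), 0 to 1 in males given succinate, 0 to 37 for succinate in wild type males (37 without wild type male succinate 1, 1 without wild type male control 1) and 0 to 5 in wild type females (5 without wild type female succinate 3). Over all 24 libraries it gave 1 to 7 calls for succinate and 0 to 8 for sex (7 and 8 without wild type female succinate 3), 0 to 2 for genotype, and 0 to 1 for genotype in males, genotype in females and their difference.

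The succinate change of Jchain turned to -0.0145 with FPKM and ran from -0.0825 (without Ptk6-/- male succinate 3) to 0.16, with -0.0137 without Ptk6-/- female succinate 2. The correlation of Jchain with Igha rose to 0.685 in controls, 0.654 without the 2 farthest libraries and 0.736 without the 3 libraries, and ran from 0.192 to 0.711 without 1 library. That with Igkc rose to 0.549 without the 3 libraries and ran from 0.180 to 0.475. That with Mzb1 fell to 0.442 in controls. That with Pigr turned to -0.200 under succinate and ran from -0.0963 to 0.233, below 0 also without Ptk6-/- male succinate 3 (-0.0176), wild type female succinate 1 (-0.0253) or Ptk6-/- female control 3 (-0.0921). Igha with Ighm ran from -0.552 to -0.326.

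Same-numbered libraries did not deviate together, with correlations of -0.32 to 0.21. With 3 mice per group these values cannot decide whether the replicate numbers pair the mice, which the labels do not state. Counts were few for Ighe, and for the V segments of Ptk6-/- male succinate 1 (531 Ighv counts of 8080321 in the library).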
